A study of Arabidopsis thaliana with 12 samples.

Results

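The genes described here encode transcription factors and transcriptional repressors of 6 plant families, and were chosen by symbol: a probe set was a member when it was paired with exactly 1 gene whose symbol starts with WRKY, NAC, MYB, BZIP, BHLH, ERF, HB, IAA, ARF, TCP or GATA followed by a digit. WRKY53 and BZIP60 were left out, which left 32 probe sets for 32 genes, of 22746 probe sets tested and 13513 paired with exactly 1 gene. They comprise 13 bZIP, 7 IAA, 5 WRKY, 5 bHLH, 1 NAC (NAC014) and 1 TCP (TCP15) gene. No probe set used here matched the MYB, ERF, HB, ARF or GATA symbols, so those families were not analysed here.

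Wild-type Arabidopsis thaliana seedlings were studied in 4 groups of 3 biological replicates, with 1 array per replicate. Control seedlings (CK) received neither agent, the INA group received INA at 10 µM, the BLM group received BLM at 4 µg/ml, and the BLM+INA group received both at these doses. The series title presents BLM as the DNA-damaging agent and INA as the inducer of immunity. The time of exposure and the age of the seedlings are not given in the sources used here.

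WRKY proteins bind W-box sequences in promoters and are best known as regulators of defence and senescence genes. The bHLH factors measured here belong to the network that turns on iron uptake genes. bZIP factors include membrane-held sensors of endoplasmic reticulum stress and regulators of zinc, salt and energy responses. IAA proteins repress auxin response factors and are broken down when auxin binds its receptor, and TCP proteins regulate cell proliferation and growth.

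Each deposited value is a log2 signal from which the median of its own probe set over the 12 arrays was subtracted, so values compare arrays within a probe set and carry no expression level. A rough level could be read only from the spacing of the stored numbers. By that reading 10 of the 32 members had a log2 signal under 4 (31.2%, against 23% of all probe sets tested), 13 lay between 4 and 8, 4 lay at 8 or over, and 5 were unclear. Changes below are log2 differences between group means ± SE with n = 3 arrays per group, and each adjusted p comes from a two-sided limma test with adjustment over the 22746 probe sets and a threshold of 0.05. The number of arrays limits the precision: for members, the SE of a difference between groups ran from 0.09 to 0.27.

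Array medians differed little, from -0.02 to 0.03. For the dap control, an added bacterial RNA, the 3′ signal less the 5′ signal followed the replicate number, averaging -0.31 ± 0.23 (SD, n = 4) for arrays numbered 1, 0.01 ± 0.25 for those numbered 2 and 0.82 ± 0.16 for those numbered 3. For actin, a plant gene, the same difference ranged from 0.03 to 0.14 in BLM+INA and from -0.48 to -0.02 in BLM. Control (-0.32 to 0.04) and INA (-0.45 to 0.08) overlapped both. For GAPDH, also a plant gene, all groups overlapped. It ranged from -0.41 to 0.23 in BLM+INA, -0.09 to 0.03 in BLM, -0.09 to 0.29 in control and 0.02 to 0.17 in INA. Root markers were measured by 3 of 13 listed genes, green shoot markers by 4 of 21 and dividing-cell markers by 2 of 15, and all of these read at 4 or over. With BLM+INA against control, 2 of 3 root markers, 2 of 4 green markers and both dividing-cell markers fell, where 11% of all probe sets did. The array means of the dividing-cell markers lay between 0.44 and 0.66 in control, 0.55 and 0.76 in INA, -0.93 and -0.45 in BLM and -0.76 and -0.51 in BLM+INA. Those of the root markers lay between 0.32 and 0.44 in control, 0.22 and 0.35 in INA, -0.34 and -0.32 in BLM and -0.40 and -0.36 in BLM+INA. The root markers that fell were EXPA7 (-1.21 with BLM and -1.16 with BLM+INA) and EXPA18 (-0.82 and -1.08). The third, PYK10, stood at -0.06 ± 0.10 and -0.02 ± 0.10, so the mean does not describe all 3. Array means of the green markers lay between 0.08 and 0.13 in control, 0.02 and 0.06 in INA, -0.06 and -0.04 in BLM, and -0.15 and -0.14 in BLM+INA. With BLM, PSAN stood at -0.52, and RCA (0.02), LHCB4.1 (-0.07) and LHCB4.2 (-0.06) did not pass. With BLM+INA, PSAN (-0.52) and LHCB4.2 (-0.28) fell, and RCA (-0.11) and LHCB4.1 (-0.08) did not pass. The mean therefore does not describe all 4. Fewer cells of a type and less RNA per cell cannot be told apart in whole seedlings, and the part of these shifts in the results below was not tested.

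In the complete data the families differed in how many members changed. With both agents together, 4 of 5 WRKY genes (WRKY6, WRKY20, WRKY22 and WRKY47) and 3 of 5 bHLH genes (BHLH101, bHLH104 and bHLH115) rose, while 1 of 13 bZIP genes (BZIP17) rose, 1 of 7 IAA genes (IAA31) fell and TCP15 fell. In all, 10 of 32 members changed with BLM+INA, 8 upward and 2 downward, against 22.2% of all probe sets (11.2% upward and 11% downward). BLM alone raised 4 members (WRKY20, WRKY22, WRKY47 and BHLH101) and lowered none, against 16.7% of all probe sets called (8.38% upward and 8.29% downward). INA alone raised BHLH101 only among the 32, against 1.16% called (0.91% upward). Of the 10 members that changed with BLM+INA, 6 passed with neither single agent, which is a count of tests passed and not a test of a difference between the agents. The BLM+INA arrays lay wholly above control for 10 members and wholly below for 4, against 19.3% and 18.3% of all probe sets. For BLM the same counts were 9 and 1, against 18.4% and 14.3%. In all, 11 members passed in at least 1 of the 6 contrasts and 21 in none. Neither this count nor that of the 6 above was taken over all probe sets, so how usual they are is not known.

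The median change with BLM+INA was 0.54 in the WRKY family, 0.39 in bHLH, 0.07 in bZIP and -0.18 in IAA, against 0.02 over all probe sets. With BLM alone the medians were 0.38, 0.21, 0.03 and -0.01 in the same order, against 0.04 over all probe sets. With INA alone they were 0.13, 0.05, 0.02 and 0.01, against 0.01. The WRKY and bHLH medians lay above that of all probe sets in each comparison, and the bZIP medians lay close to it. These medians and the counts above cover only the 5 WRKY, 5 bHLH, 13 bZIP and 7 IAA genes matched here, not whole families. The gene table lacked 8730 probe sets, whose family could not be read. With 1 array left out at a time, the 10 calls with BLM+INA became 4 to 11, with 4 left without BLM+INA replicate 1, 5 without control replicate 1 and 6 without BLM+INA replicate 3. The 4 calls with BLM became 1 when control replicate 1 was omitted, and 2 when the omitted array was control replicate 2, BLM replicate 1 or BLM replicate 2. The WRKY count with BLM+INA was 4 in the complete data and 2 at the lowest, without BLM+INA replicate 1. With BLM it went from 3 to 0 without control replicate 1. The bHLH count with BLM+INA went from 3 to 1 without control replicate 1 or BLM+INA replicate 1 or 3. That of bZIP was 1 and ranged from 0 to 2. Without the 4 arrays numbered 3, 3 of 5 WRKY, 1 of 5 bHLH and 3 of 13 bZIP genes passed, so the higher bHLH count was not kept. The share of all probe sets called was not taken in any fit with arrays left out. How far these counts follow a general loss of calls is therefore not known.

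**Figure D1:**
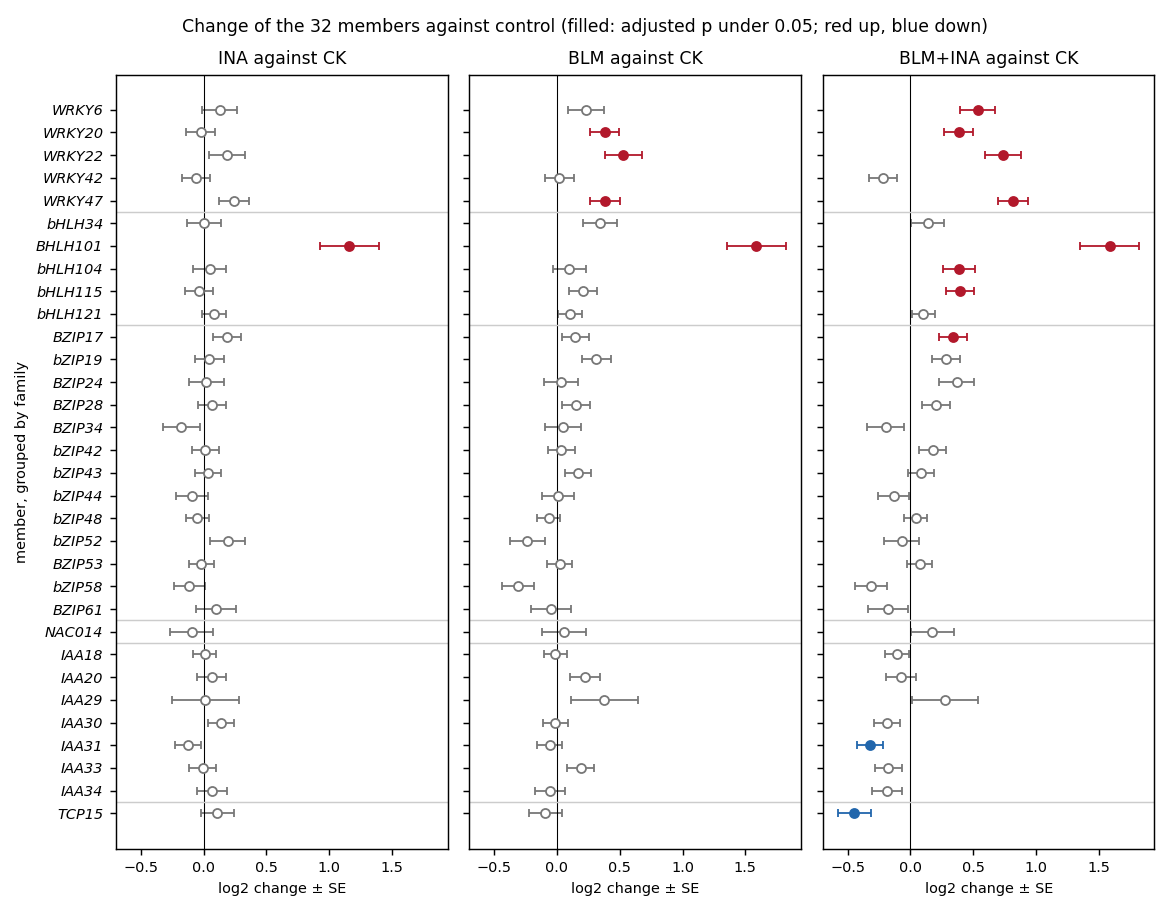
Log2 change (x axis) ± SE of each of the 32 members (y axis, grouped by family) with INA, BLM and BLM+INA against control, n = 3 arrays per group. Filled red and blue points passed an adjusted p of 0.05 upward and downward: 1 in the INA panel, 4 in the BLM panel and 10 in the BLM+INA panel, where WRKY and bHLH genes make up 7 of the 8 rises.

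WRKY47 and WRKY22 showed the largest WRKY changes with BLM+INA, and their order turned with array weights (0.74 for WRKY47 and 0.78 for WRKY22) and when BLM+INA replicate 1 or control replicate 3 was omitted. WRKY47 (AT4G01720) belongs with WRKY6 and WRKY42 to group IIb of the family. Its log2 values were -0.34, -0.18 and -0.32 in control, -0.10, 0.04 and -0.04 in INA, 0.15, 0.23 and -0.08 in BLM, and 0.71, 0.27 and 0.64 in BLM+INA. The groups stepped upward in that order: all INA arrays lay above all control arrays, BLM overlapped INA, and all BLM+INA arrays lay above every other array. WRKY47 rose with BLM+INA by 0.82 ± 0.12 (adjusted p = 5.75e-05), which is 1.77-fold, and with BLM by 0.38 ± 0.12 (adjusted p = 0.035), while INA alone gave 0.25 ± 0.12 (adjusted p = 0.701). It was the only member of the 32 that rose when INA was added to BLM (0.44 ± 0.12, adjusted p = 0.0393, limma), against 3.44% of all probe sets called upward in that comparison. Of the 12 fits that each omit 1 array, 7 lost that last call (range 0.35 to 0.57) and 4 lost the call with BLM (0.32 to 0.47), namely those omitting control replicate 1 or 3 or BLM replicate 1 or 2. Omitting the 4 arrays numbered 3 together also ended both (0.30 against BLM and 0.46 with BLM).

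WRKY22 (AT4G01250), a factor downstream of a MAP kinase cascade in the response to bacterial flagellin, had values of -0.53, -0.46 and -0.28 in control, -0.42, -0.39 and 0.09 in INA, 0.13, -0.09 and 0.26 in BLM, and 0.10, 0.28 and 0.54 in BLM+INA. Both BLM groups lay above all control arrays, and the third array was the highest in each of the 4 groups. WRKY22 rose by 0.53 ± 0.15 with BLM (adjusted p = 0.0173) and by 0.74 ± 0.15 with BLM+INA (adjusted p = 0.00106), and stood at 0.19 ± 0.15 with INA. Its signal read as under 4. For BLM the call needed control replicates 1 and 2 and BLM replicates 1 and 3, each of which ended it when omitted (range over the 12 fits 0.45 to 0.62), and that with BLM+INA held in all 12 fits (0.62 to 0.84).

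WRKY20 (AT4G26640), a group I member with a pair of WRKY domains, read -0.18, -0.06 and -0.12 in control, -0.06, -0.17 and -0.20 in INA, 0.06, 0.45 and 0.28 in BLM, and 0.42, 0.07 and 0.32 in BLM+INA. The arrays fell into a lower set without BLM and a higher set with it, with no overlap between them. The rise was 0.38 ± 0.12 with BLM (adjusted p = 0.0301) and 0.39 ± 0.12 with BLM+INA (adjusted p = 0.0222), and the difference between these groups was 0.00 ± 0.12, with a 95% interval from -0.24 to 0.25. The call with BLM was lost without any 1 control array or without BLM replicate 2 or 3 (0.29 to 0.48 over 12 fits), and that with BLM+INA without control replicate 1 or 3 or BLM+INA replicate 1 or 3 (0.31 to 0.49). Without the 4 arrays numbered 3, both calls were lost at nearly the same size (0.37 and 0.36).

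WRKY6 (AT1G62300), a regulator of senescence and defence genes and of phosphate export, read -0.19, -0.34 and -0.13 in control, 0.02, -0.01 and -0.27 in INA, 0.04, -0.04 and 0.05 in BLM, and 0.69, 0.01 and 0.26 in BLM+INA. Arrays with both agents all lay above control but were widely spread, and 1 of them fell among the INA and BLM arrays. WRKY6 rose with BLM+INA by 0.54 ± 0.14 (adjusted p = 0.00916), a call lost without BLM+INA replicate 1 (0.35). It stood at 0.23 ± 0.14 with BLM (adjusted p = 0.3) and 0.13 ± 0.14 with INA.

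WRKY42 (AT4G04450), which like WRKY6 acts on phosphate transport genes, did not follow the others. Its arrays read -0.03, 0.15 and 0.03 in control, -0.13, 0.06 and 0.04 in INA, 0.30, -0.14 and 0.05 in BLM, and -0.12, -0.14 and -0.24 in BLM+INA, with a signal under 4. With both agents all arrays lay below control, but the change of -0.22 ± 0.11 did not pass (adjusted p = 0.204, 95% interval from -0.46 to 0.02). Correlations between pairs of WRKY genes over the 12 arrays ran from -0.48 to 0.82, with a median of 0.54 over 10 pairs. These are descriptions, since the points share the 4 treatments, and with the group means removed the median was 0.02. The 0.82 was that of WRKY6 with WRKY47.

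**Figure D2:**
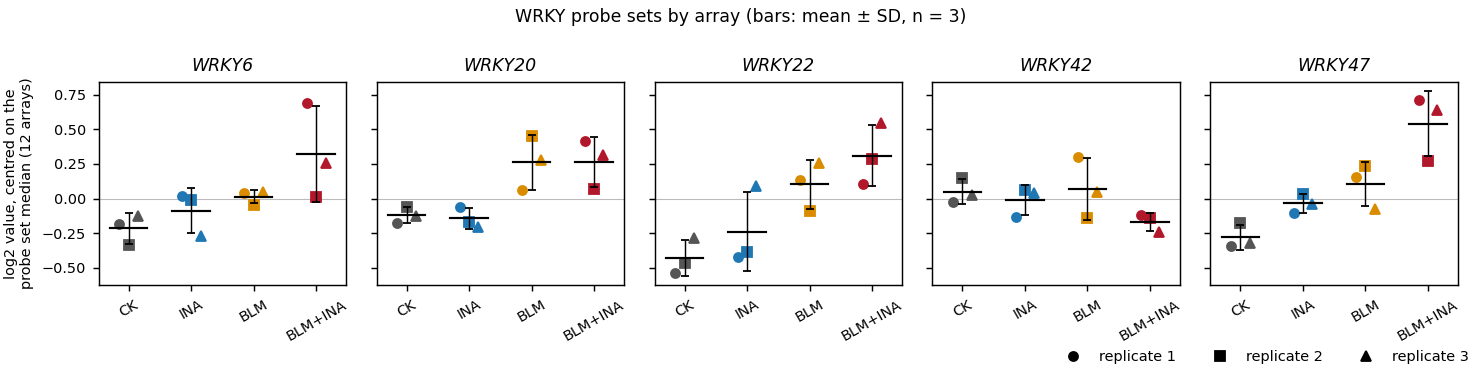
Median-centred log2 value (y axis) of the 5 WRKY probe sets on each array (marker shape, replicate number) by group (x axis), with the mean ± SD of 3 arrays. WRKY47 reaches 0.27 to 0.71 in BLM+INA against -0.34 to -0.18 in control, and WRKY42 lies lower in BLM+INA (-0.24 to -0.12) than in control (-0.03 to 0.15).

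The 5 single-gene probe sets most like WRKY47 over the 12 arrays, by Pearson correlation, were AT2G32520 (0.95), AT5G47070 (0.95), AT3G23550 (0.94), AT3G49340 (0.94) and AT1G02750 (0.94). Their changes with BLM+INA ran from 0.56 for AT2G32520 to 1.61 for AT5G47070, and with INA from 0.12 for AT1G02750 to 0.48 for AT5G47070. They were chosen for their likeness over these arrays, so a shared order of the groups follows from the choice.

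The bHLH genes were led by BHLH101, which rose with every treatment. BHLH101 (AT5G04150) is one of the subgroup Ib factors that are induced by iron shortage and switch on iron uptake together with FIT. Its log2 values were -1.57, -1.20 and -0.90 in control, -0.17, -0.41 and 0.39 in INA, 0.22, 0.17 and 0.71 in BLM, and -0.17, 0.46 and 0.79 in BLM+INA. All 9 treated arrays lay above the 3 control arrays, and the treated groups overlapped each other. The rise was 1.16 ± 0.23 with INA (2.24-fold, adjusted p = 0.016), 1.59 ± 0.23 with BLM (3.01-fold, adjusted p = 0.000103) and 1.59 ± 0.23 with BLM+INA (adjusted p = 6.67e-05). It was the only member of the 32 past 2-fold with BLM+INA, and these comparisons share their control arrays.

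Adding INA to BLM left BHLH101 at -0.00 ± 0.23 from BLM alone (95% interval from -0.50 to 0.49), and adding BLM to INA gave 0.43 ± 0.23 (adjusted p = 0.248), which passed with array weights (0.63, adjusted p = 0.0402) and with the replicate number as a block (adjusted p = 0.0302). The third array was the highest in every group for BHLH101, WRKY22 and BZIP24, which 3.89% of all probe sets showed. Deviations of BHLH101 from its group means averaged 0.39 ± 0.06 (SD, n = 4) on the arrays numbered 3, and without those 4 arrays it passed with each treatment (adjusted p = 0.00919 with INA), at 1.58 with BLM and 1.54 with BLM+INA. The call with INA was lost without control replicate 1 or 2 or INA replicate 1 or 3 (range over 12 fits 0.94 to 1.33), and those with BLM (1.41 to 1.75) and BLM+INA (1.37 to 1.85) held in all 12.

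The subgroup IVc factors, which activate the Ib genes, changed less. bHLH115 (AT1G51070) read -0.14, -0.04 and -0.06 in control, -0.31, -0.07 and 0.04 in INA, -0.10, 0.22 and 0.26 in BLM, and 0.34, 0.27 and 0.34 in BLM+INA. All arrays with both agents lay above the other 9 and close together. bHLH115 rose by 0.40 ± 0.11 with BLM+INA (adjusted p = 0.0173) and by 0.43 ± 0.11 relative to INA (adjusted p = 0.0121), with 0.21 ± 0.11 for BLM (adjusted p = 0.25). Omitting control replicate 1 or BLM+INA replicate 1 or 3 ended the first call (range 0.37 to 0.42), as did omitting the 4 arrays numbered 3 (0.39), and omitting INA replicate 1 ended the second (0.33).

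bHLH104 (AT4G14410) read -0.17, -0.18 and -0.02 in control, -0.26, -0.16 and 0.20 in INA, -0.24, 0.16 and 0.02 in BLM, and 0.40, 0.15 and 0.24 in BLM+INA. Values with both agents lay above control and overlapped both single-agent groups. The rise with BLM+INA was 0.39 ± 0.13 (adjusted p = 0.0395), which missed the threshold when control replicate 1 or 2 or BLM+INA replicate 1 or 3 was omitted (range 0.32 to 0.44) and when the 4 arrays numbered 3 were (0.45, adjusted p = 0.0502). bHLH34 (AT3G23210), the third IVc member measured, read 0.11, 0.25 and 0.16 in BLM against -0.35, -0.23 and 0.06 in control. Its arrays with BLM lay above control and above BLM+INA (0.08, -0.12 and -0.06), but the change with BLM was 0.34 ± 0.13 (adjusted p = 0.092) and that with BLM+INA 0.14 ± 0.13 (adjusted p = 0.539). It passed with BLM without control replicate 3 (0.46) or INA replicate 3 (0.34) without the 4 arrays numbered 3 (0.47) and with array weights (0.38).

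bHLH121 (AT3G19860), a partner of the IVc factors, did not pass with any treatment: its change was 0.10 ± 0.09 with BLM+INA, with a 95% interval from -0.10 to 0.30. All 10 pairs of bHLH genes correlated positively over the 12 arrays (median 0.57, from 0.42 to 0.86). With the group means removed the median was 0.44, and both are descriptions. Every bHLH gene averaged above its group means on the arrays numbered 3 (0.04 to 0.39). On those numbered 1 each averaged below them (-0.28 to -0.02). The part of this shift in the correlations was not tested. Across families, the highest pair was BHLH101 with WRKY22, at 0.88 over the 12 arrays and 0.90 with the group means removed, beside the shared rise on the arrays numbered 3 described above.

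**Figure D3:**
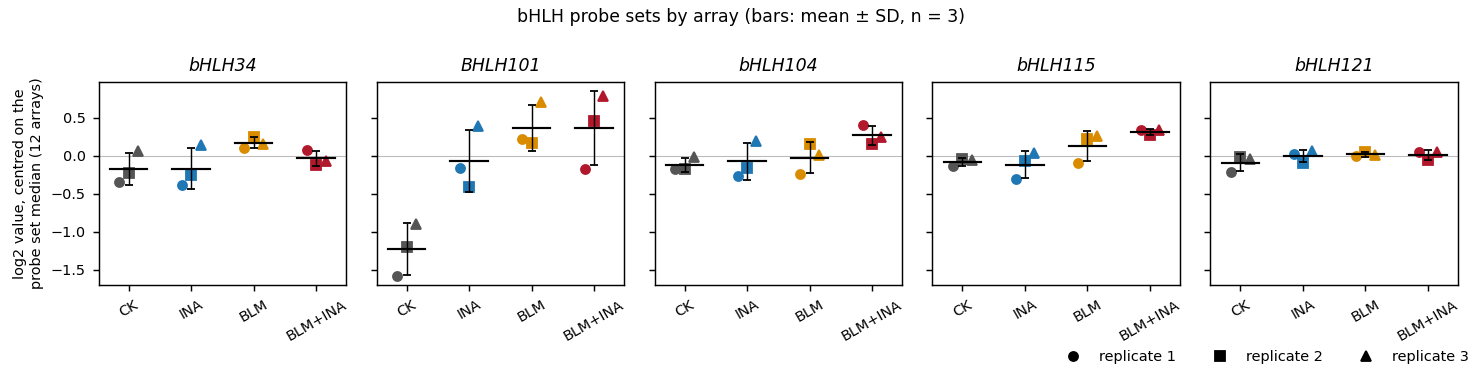
Median-centred log2 value (y axis) of the 5 bHLH probe sets on each array (marker shape, replicate number) by group (x axis), with the mean ± SD of 3 arrays. BHLH101 lies between -1.57 and -0.90 in control and at -0.41 or above on all 9 treated arrays, and the other 4 genes stay within -0.39 and 0.40.

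A like search for BHLH101, added after its values were seen, gave AT1G47400 (r = 0.97), AT5G18130 (0.95), AT4G05070 (0.93), AT1G65820 (0.93) and AT5G05250 (0.92). Their changes with BLM+INA ran from 0.40 for AT1G65820 to 1.63 for AT5G05250, with 0.73 for AT4G05070. These genes too were chosen for their likeness over the same arrays.

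Of the 13 bZIP genes 1 rose with BLM+INA (7.69%, against 22.2% of all probe sets called), and none passed in the other 5 contrasts. BZIP17 (AT2G40950), a factor held in the endoplasmic reticulum membrane and released by stress, read -0.18, -0.13 and -0.16 in control, 0.23, 0.01 and -0.16 in INA, -0.01, 0.09 and -0.11 in BLM, and 0.30, 0.21 and 0.04 in BLM+INA. The control arrays were low and nearly level, BLM and BLM+INA lay above them, and BLM+INA overlapped both single-agent groups. BZIP17 rose with BLM+INA by 0.34 ± 0.11 (adjusted p = 0.033), with 0.18 ± 0.11 for INA and 0.15 ± 0.11 for BLM. It missed the threshold when any 1 control array or BLM+INA replicate 1 or 2 was omitted (range 0.28 to 0.41). BZIP28 (AT3G10800), its relative with the same membrane release, stood at 0.21 ± 0.11 with BLM+INA (adjusted p = 0.218) and passed without control replicate 2 (0.33).

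BZIP24 (AT3G51960), a regulator of the salt response, showed the largest bZIP change with BLM+INA. It read -0.32, -0.20 and 0.08 in control, -0.37, -0.15 and 0.16 in INA, -0.02, -0.33 and 0.02 in BLM, and 0.20, 0.22 and 0.25 in BLM+INA. With both agents the arrays lay together above the other 9, while the third array was the highest in each group. The change of 0.37 ± 0.14 did not pass (adjusted p = 0.0657), and it passed without control replicate 3 (0.48), without INA replicate 1 or 3 (0.37 each), with array weights (0.40), with the replicate number as a block (0.37, adjusted p = 0.0242), in the fit of the compared groups only (0.37) and without the 4 arrays numbered 3 (0.47).

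bZIP19 (AT4G35040), an activator of zinc uptake genes, lay above control on every BLM and BLM+INA array but stood at 0.31 ± 0.11 with BLM (adjusted p = 0.072) and 0.28 ± 0.11 with both (adjusted p = 0.0902). bZIP58 (AT1G13600) lay below control on every such array, at -0.31 ± 0.12 with BLM (adjusted p = 0.104) and -0.31 ± 0.12 with both (adjusted p = 0.086). Without BLM replicate 3, bZIP19 passed with BLM (0.41), and without BLM replicate 2, bZIP58 passed with BLM+INA. Without the 4 arrays numbered 3, bZIP19 passed with BLM (0.47) and with BLM+INA (0.40).

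The other 8 bZIP genes were BZIP34 (AT2G42380), bZIP42 (AT3G30530), bZIP43 (AT5G38800), bZIP44 (AT1G75390), bZIP48 (AT2G04038), bZIP52 (AT1G06850), BZIP53 (AT3G62420) and BZIP61 (AT3G58120), with changes from -0.20 (BZIP34) to 0.18 (bZIP42) with BLM+INA. Among them, bZIP44 and BZIP53 belong to the group of small bZIP factors that respond to low energy, and stood at -0.13 ± 0.12 and 0.07 ± 0.10. For the 12 bZIP genes that did not pass with BLM+INA, the 95% intervals lay between -0.58 and 0.66. Pairs of bZIP genes had a median correlation of 0.00 over the 12 arrays (78 pairs, from -0.80 to 0.66). The single NAC gene, NAC014 (AT1G33060), read from -0.23 to 0.23 in control, -0.30 to 0.08 in INA, -0.27 to 0.47 in BLM and 0.03 to 0.43 in BLM+INA. These groups overlapped throughout, and its change with BLM+INA was 0.17 ± 0.17 (adjusted p = 0.555).

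Of the 7 IAA genes 1 fell with BLM+INA (14.3%, against 11% of all probe sets called downward), and none passed with INA or BLM alone. IAA20, IAA30, IAA33 and IAA34 are divergent members that lack the degron by which auxin triggers breakdown of the family, whereas IAA18 and IAA29 carry it. IAA31 (AT3G17600) read 0.17, 0.00 and 0.20 in control, 0.08, -0.02 and -0.06 in INA, 0.00, 0.18 and 0.02 in BLM, and -0.10, -0.34 and -0.16 in BLM+INA. All of the last lay below the other 9 arrays. IAA31 fell with BLM+INA by 0.32 ± 0.10 (adjusted p = 0.03), and missed the threshold when control replicate 1 or 3 or BLM+INA replicate 2 or 3 was omitted (range -0.38 to -0.25) or the 4 arrays numbered 3 were (-0.30, adjusted p = 0.158).

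IAA30 (AT3G62100) read -0.14, 0.09 and 0.07 in control, 0.27, 0.14 and 0.02 in INA, -0.02, 0.09 and -0.09 in BLM, and -0.18, -0.24 and -0.12 in BLM+INA. Under both agents it lay below all INA and BLM arrays and overlapped control. IAA30 was lower with BLM+INA than with INA (-0.32 ± 0.10, adjusted p = 0.0339, with 5 of 12 omissions of 1 array, those of INA replicate 1 or 2 or any BLM+INA array, ending the call, range -0.39 to -0.26), and against control it stood at -0.19 ± 0.10 (adjusted p = 0.229). IAA33 (AT5G57420) read 0.32, 0.00 and 0.24 in BLM and -0.11, -0.23 and -0.19 in BLM+INA. Those groups did not overlap, at a difference of -0.37 ± 0.11 that just missed the threshold (adjusted p = 0.0575) and passed without control replicate 2 (-0.37) or BLM replicate 2 (-0.46) without dim probe sets (adjusted p = 0.0494) and with the replicate number as a block (adjusted p = 0.0258).

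When INA was added to BLM, all 7 IAA genes had a change below 0, from -0.37 (IAA33) to -0.10 (IAA18), where 53.7% of all probe sets lay below 0 and the median over all was -0.02. None of the 7 passed by limma, 3 had an unadjusted p under 0.05 (16.9% of all probe sets did), and the arrays of 3 lay wholly below those of BLM (11% of all probe sets). The 3 with non-overlapping arrays were IAA30, IAA31 and IAA33, of which IAA30 and IAA31 read as under 4 and IAA33 was unclear. IAA20 and IAA34 also read as under 4. IAA20 (AT2G46990) stood at -0.30 ± 0.12 (adjusted p = 0.19), IAA34 (AT1G15050) at -0.13 ± 0.12, and IAA18 (AT1G51950) at -0.10 ± 0.09. Without the 4 arrays numbered 3, IAA20 passed (-0.49). IAA29 (AT4G32280), which is induced by shade, varied most between replicates, from -0.17 to 0.86 in BLM alone and from -0.78 to 0.11 in INA, and its change with BLM+INA of 0.28 ± 0.27 had a 95% interval from -0.29 to 0.84.

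The auxin list held 8 measured genes of 47 listed for auxin synthesis, conjugation, perception and transport. GH3.3, an enzyme that conjugates auxin to amino acids, rose by 2.19 ± 0.11 with BLM (adjusted p = 3.07e-10) and 1.96 ± 0.11 with BLM+INA, and WAG2, a kinase acting on auxin transport, fell with BLM+INA by 0.56 ± 0.14 (adjusted p = 0.00681). The other 6 did not pass against control. When INA was added to BLM, GH3.9, another member of the GH3 family, fell by 0.62 ± 0.14 (adjusted p = 0.0123). Against INA, GH3.17 rose with BLM+INA by 0.45 ± 0.10 (adjusted p = 0.00527), GH3.3 rose by 1.62 ± 0.11 and WAG2 fell by 0.64 ± 0.14. The median of the 8 was 0.09 with BLM and -0.11 with BLM+INA.

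TCP15 (AT1G69690), a class I TCP factor that regulates cell proliferation and endoreduplication, read 0.03, -0.02 and 0.18 in control, 0.36, 0.02 and 0.14 in INA, -0.27, 0.21 and -0.03 in BLM, and -0.56, -0.22 and -0.36 in BLM+INA. Under both agents it lay below all control and INA arrays, and BLM overlapped all 3 other groups. TCP15 fell with BLM+INA by 0.45 ± 0.13 (adjusted p = 0.0199) and lay 0.55 ± 0.13 lower than with INA (log2 change -0.55, adjusted p = 0.00598), with -0.09 ± 0.13 for BLM alone (95% interval from -0.37 to 0.19). Omitting control replicate 3 or BLM+INA replicate 1 (range -0.52 to -0.35), or the 4 arrays numbered 3 (-0.40), ended the call against control, and that against INA held in all 12 fits (-0.63 to -0.46). The dividing-cell markers given above were low in both BLM groups, and their part in the change of TCP15 was not tested.

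**Figure D4:**
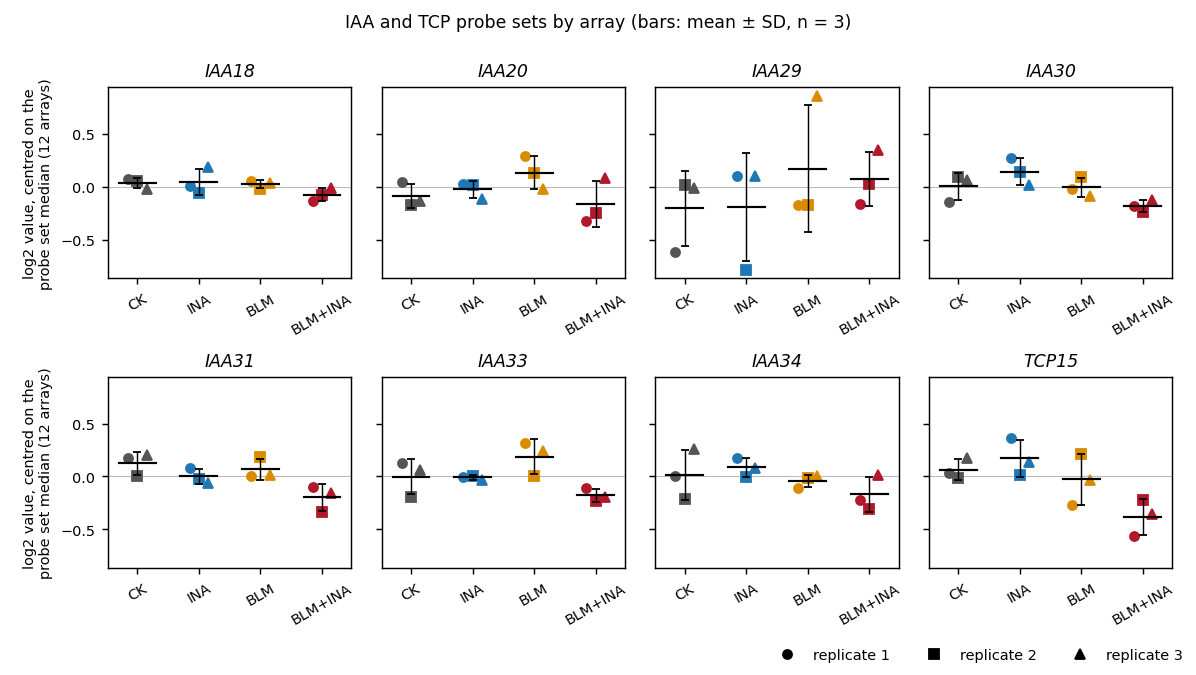
Median-centred log2 value (y axis) of the 7 IAA probe sets and TCP15 on each array (marker shape, replicate number) by group (x axis), with the mean ± SD of 3 arrays. IAA31 and TCP15 are at -0.10 or lower on all BLM+INA arrays, and IAA29 spreads from -0.78 to 0.86.

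Against INA alone, 7 of 32 members changed with BLM+INA, 5 upward and 2 downward, where 18.8% of all probe sets were called (9.27% upward and 9.52% downward). WRKY47 (0.58 ± 0.12, adjusted p = 0.00224), WRKY22 (0.55 ± 0.15, adjusted p = 0.0121), WRKY20 (0.41 ± 0.12, adjusted p = 0.0185) and WRKY6 (0.41 ± 0.14, adjusted p = 0.0499) rose beside bHLH115, and TCP15 and IAA30 fell. The 7 calls became 3 when either of the INA arrays numbered 1 and 2, or the BLM+INA array numbered 3, was omitted, and 4 when the BLM+INA array numbered 1 was. The WRKY6 call lay at the threshold, and 11 of the 12 fits that omit 1 array ended it (range 0.22 to 0.56). WRKY20 lost its call without INA replicate 2 or 3 or BLM+INA replicate 1 or 3 (range 0.33 to 0.51), and WRKY22 without INA replicate 1 or 2 or BLM+INA replicate 3 (0.43 to 0.72). Against BLM alone, 1 of 32 changed, WRKY47, where 5.81% of all probe sets were called. The 2 comparisons share the BLM+INA arrays.

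The interaction compares the change with both agents with the sum of the single changes on the log2 scale. None of the 32 members passed it in the limma fit without the replicate number, against 0.382% of all probe sets, and 5 had an unadjusted p under 0.05, against 7.47% of all. Those 5 were BHLH101 (-1.16 ± 0.33, adjusted p = 0.225), TCP15 (-0.46 ± 0.19, adjusted p = 0.56), IAA20 (-0.36 ± 0.17), IAA33 (-0.36 ± 0.15) and IAA30 (-0.31 ± 0.14), all below the sum. With the replicate number as a block, BHLH101 passed (-1.16, adjusted p = 0.00572). All 7 IAA genes stood below 0, with a median of -0.20, where 54.7% of all probe sets did. The interaction equals the change on adding INA to BLM less the change with INA alone. INA alone moved these genes by -0.12 to 0.14, so this count largely repeats the 7 changes below 0 given above, on shared arrays. The 5 WRKY genes stood between -0.18 ± 0.16 (WRKY42) and 0.19 ± 0.17 (WRKY47), with a median of 0.03, so that for WRKY22 the change with both (0.74) was 0.02 ± 0.21 from the sum of 0.19 and 0.53. Intervals were wide: over the 32 members the 95% bounds ran from -1.86 to 0.73, and the SE from 0.13 to 0.38.

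**Figure D5:**
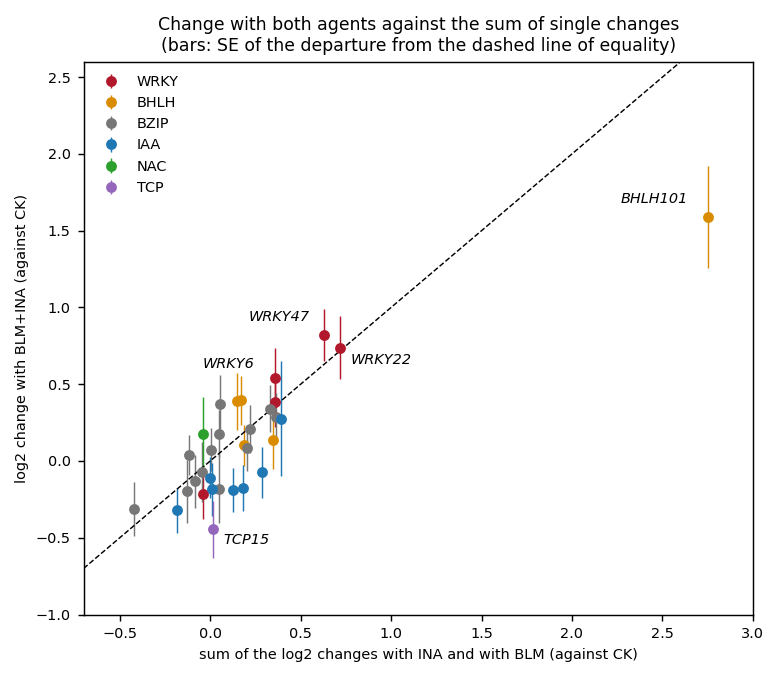
Log2 change with BLM+INA (y axis) against the sum of the log2 changes with INA and with BLM (x axis) for the 32 members, coloured by family, with the SE of the departure from the sum as bars and a dashed line of equality. BHLH101 lies furthest below the line, by 1.16, and WRKY22 lies 0.02 from it.

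The lists fixed for other partners gave few genes. No probe set used here matched the 87 symbols of WRKY partners and upstream kinases. Of the flavonoid list, whose MYB regulators were not analysed here, 7 of 29 symbols were measured. Of these, 4 rose with BLM, where 8.38% of all probe sets did. With BLM+INA 2 rose and 1 fell, where 11.2% and 11% of all probe sets did. DFR, an enzyme of anthocyanin synthesis, fell with INA by 0.99 ± 0.15 (adjusted p = 0.00105), rose 11.3-fold with BLM (adjusted p = 1.09e-10) and rose with BLM+INA by 2.12 ± 0.15. When INA was added to BLM it fell by 1.38 ± 0.15 (adjusted p = 9.27e-06). In that comparison 4 of the 7, DFR included, fell and 1 rose. Of all 22746 probe sets, 538 fell and 783 rose there (5.81% called in either direction). Among the 4 that fell, BAN (-0.45 ± 0.13) read as under 4. The 1 that rose was the symbol CHI, which belongs here to a chitinase gene (AT2G43570) and not to the flavonoid pathway. CHI was also among the 4 that rose with BLM and the 2 that rose with BLM+INA. TSO1 (AT3G22780), a DNA-binding regulator of cell division, was the single gene measured of 35 DNA damage and cell cycle regulators, and fell by 0.38 ± 0.12 with BLM (adjusted p = 0.0457) and by 0.61 ± 0.12 with BLM+INA (adjusted p = 0.00131).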

How the data were processed

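Biotin-labelled probes from amplified seedling RNA were measured on 1-colour arrays, per the labels' protocols. The authors deposited log2 values made with RMA, per the submitters' processing notes, with no version stated; RMA gives log2, and the table does not name the base. Row medians within 5e-07 of 0 show a centring of every probe set on its 12-array median. Of 22810 probe sets, 64 controls were set aside. A gene table paired 13513 with 1 gene and 503 with several, and lacked 8730; RefSeq (TAIR10.1) supplied the symbols, with 77 unmatched.

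In limma 3.58.1 (R 4.3.3), a model with a mean for each group used the 12 arrays together (degrees of freedom: 8 residual, 8.82 prior), with Benjamini-Hochberg adjustment per contrast over 22746 probe sets, after tests on simulated data. Named genes were, in each of 6 contrasts, up to 10 rises and 10 falls past the threshold, and in each family the largest change with BLM+INA; others were named to account for every member. Members, lists and rules were chosen with earlier results of these data known. Likeness was the Pearson correlation over 12 arrays; the rule's MYB gene did not exist among members. Level classes came from the spacing of the stored numbers: under 4 where at least 4 of 12 values needed the finer step. This also replaced a planned filter on mean level. Promoter motifs were not searched. Alternatives are given in the closing section. Plots used Python 3.11.15 and matplotlib 3.10.9.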

Additional observations from a re-analysis of the deposited data

How the results depend on the processing

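Counts of changed members were 1 with INA, 4 with BLM, 10 with BLM+INA, 1 for BLM+INA against BLM, 7 against INA and 0 for the interaction. Leaving out 1 array at a time gave ranges of 0 to 1, 1 to 5, 4 to 11, 0 to 2, 3 to 7 and 0 to 0 in that order. Unmoderated variances gave 0, 1, 5, 0, 4 and 0, and an adjusted p of 0.01 gave 0, 1, 4, 0, 2 and 0. A 2-fold minimum left 1, 1, 1, 0, 0 and 0. For BLM+INA against BLM the count was 0 with quantile normalization, array weights or the compared groups only, and 2 without dim probe sets. With the replicate number as a block (replicate block) it was 2, and the interaction count was 1, BHLH101 (-1.16, adjusted p = 0.00572). The block also let BZIP24 pass with BLM+INA and against INA, BHLH101 pass against INA and IAA33 pass against BLM. Arrays numbered 3 deviated together: their 6 pairs correlated between 0.23 and 0.40, and at -0.36 to -0.04 with other numbers. Pairs numbered 1 (0.05 to 0.22) and 2 (-0.05 to 0.08) did not all exceed 0.1. Over all numbers, pairs of the same number had a median of 0.13 and other pairs -0.11. Of the 12 arrays, 7 correlated best with their own number. The block stayed an alternative because no label names a shared day or batch for a number. Which of the 2 fits describes the design better was not tested, and the BHLH101 interaction depends on it. Centring each array gave the same 6 counts. Leaving out the 4 arrays numbered 3, an alternative chosen after seeing the data, gave 1, 4, 7, 1, 7 and 0, of which 1, 2, 5, 0 and 5 were members called in the complete data. The share of all probe sets called was not taken under these alternatives. For the changes past the threshold, with those of BZIP24 and NAC014 with BLM+INA, 472 repeats kept their side of the threshold. Another 141 lost it, 7 (all of BZIP24) gained it and none turned direction. Many of these repeats left the fitted change as it was, such as other variances, other cut-offs or an omitted array outside the compared groups. No turn was possible in those, and the 141 include losses under the stricter cut-offs of 0.01 and 2-fold. Over all members and contrasts, alternatives gained 31 calls in 9 members, 11 of them in BZIP24. The member set was not reduced, since no name showed another kind of protein. Arrays per group, and signals under 4 for 10 members, limit what can be seen.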
